A study of Mus musculus with 4 samples.

Results

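The lysosomal enzymes and membrane proteins described here are 42 genes chosen by symbol, among them cathepsins, glycosidases, sulfatases, sphingolipid enzymes and proteins of the lysosomal membrane. They were taken from 24346 gene symbols, and each of the 42 was found in the tables. Levels are in FPKM, the number of fragments on a gene scaled by the length of its transcript and by the depth of the library. Averaged over the 4 libraries all 42 reached 1 FPKM, as did 10686 symbols in all, which are called all genes below. RNA was sequenced from the liver of male ob/ob mice, a strain without functional leptin that overeats and becomes obese. Feeding began at 6 weeks of age and lasted 4 weeks. CD was a regular chow, CD+7KC was the same chow with 0.01% 7-ketocholesterol (7KC, an oxidized cholesterol), WD was a western type diet rich in fat, and WD+7KC was WD with 0.01% 7KC. Every diet, CD included, contained 1% cholesterol, so that none of the groups was free of added cholesterol, and all 4 groups lacked leptin. Each group had 1 library, and the number of mice behind a library was not given in the sources used here. Variation between mice could therefore not be estimated, and no test was possible. Where 4 levels follow each other without further words, they are in the order CD, CD+7KC, WD, WD+7KC.

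Lysosomes are acidic organelles in which proteins, complex sugars, sphingolipids and cholesteryl esters brought in by endocytosis, phagocytosis or autophagy are broken down. In the liver they work in hepatocytes, where they also free cholesterol from lipoproteins taken up from blood, and they are abundant in macrophages, including the resident Kupffer cells. Many lysosomal genes carry a palindrome around the E-box sequence CACGTG in their promoters, the CLEAR element, which is bound by the transcription factors TFEB, TFE3 and MITF.

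The spacing of low FPKM values gave depths of about 10900000, 11000000, 9400000 and 12100000 fragments, with 75.1% to 76.3% of the low values within 0.1 of a whole read. Exact (Clopper-Pearson) 95% intervals are given for the 26 members with a single RefSeq mRNA, and they cover counting error only. They are intervals of the ratio without the 0.1 FPKM that was added to each level for the fold changes. The sums over all symbols were 715605, 696062, 699534 and 602059 FPKM. Because of the low sum in WD+7KC, rescaling all libraries to equal sums (TPM) moved the median over all genes, on the log2 scale, from -0.03 to 0.18 in WD+7KC relative to WD, and from -0.02 to 0.18 in WD+7KC relative to CD+7KC. Small differences that involve this library therefore change sign with the scaling, and they are read against the median of all genes. The hepatocyte marker Alb, which encodes albumin, was at 30000 to 36000 FPKM and Ttr, which encodes transthyretin, at 5380 to 7730 FPKM. The exons of 12 members overlap those of another gene, namely Arsa, Cln3, Ctsa, Ctsb, Ctsz, Glb1, Grn, Hexa, Idua, Lamp1, Ppt1 and Sgsh, and reads in the shared bases may have been counted for either gene.

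The CLEAR element was looked for in the promoters of the members. Because it is known from lysosomal genes, a high share among the members is not an independent result. RefSeq promoters (GRCm38.p6), from 250 bases before to 50 bases after the start site, were matched for 37 of the 42 genes. The 6-letter core CACGTG was found in 13 of the 37 (35.1%), compared with 8.09% of all 27025 genes with a promoter and 12.3% of the 8203 of these that also averaged 1 FPKM or more. The 8-letter sequence GTCACGTG, which contains the core and was searched on both strands, was found in 10 of the 37 (27.0%), compared with 2.55% of all genes and 5.06% of those at 1 FPKM or more. The palindrome TCACGTGA, which overlaps both, was found in Ctsd, Ctsa, Mcoln1, Cln3 and Gla (13.5%, compared with 1.12% and 2.41%). The full 10-letter palindrome was found in Cln3 alone among the members (2.7%, compared with 0.37% and 0.926%). A match is a description of the sequence and not evidence that a factor is bound there.

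Below is a 50-base stretch before the RefSeq start site for each of the 10 genes with GTCACGTG, on the strand of the gene and from 5′ to 3′. Capitals mark the 8 letters, which read CACGTGAC where the match is on the other strand, and the 10-letter palindrome in Cln3. The stretches are shown so that the sequence around the shared letters can be compared between the genes. They lie before the RefSeq start sites. The gene spans given below are from GENCODE and can begin further upstream, so that the stretches of Lgmn, Ctsd, Ctsa and Cln3 lie within those spans and those of Mcoln1, Sgsh and Arsa lie partly within them.
Lgmn (chr12:102439115-102439164, minus strand): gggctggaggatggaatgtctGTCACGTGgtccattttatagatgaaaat
Ctsd (chr7:142387897-142387946, minus strand): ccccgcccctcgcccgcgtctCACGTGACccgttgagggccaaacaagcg
Ctsa (chr2:164833723-164833772, plus strand): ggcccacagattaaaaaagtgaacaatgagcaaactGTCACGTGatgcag
Lamp1 (chr8:13159111-13159160, plus strand): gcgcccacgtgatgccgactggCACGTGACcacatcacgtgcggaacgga
Mcoln1 (chr8:3500453-3500502, plus strand): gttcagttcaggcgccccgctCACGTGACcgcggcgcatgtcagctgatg
Cln3 (chr7:126583331-126583380, minus strand): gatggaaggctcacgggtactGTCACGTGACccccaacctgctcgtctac
Gla (chrX:134601173-134601222, minus strand): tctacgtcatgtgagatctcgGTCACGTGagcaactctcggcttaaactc
Glb1 (chr9:114401007-114401056, plus strand): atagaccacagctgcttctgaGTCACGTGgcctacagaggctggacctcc
Sgsh (chr11:119355511-119355560, minus strand): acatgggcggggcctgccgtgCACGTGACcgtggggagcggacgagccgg
Arsa (chr15:89477425-89477474, minus strand): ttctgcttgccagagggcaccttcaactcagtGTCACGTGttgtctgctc

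As FPKM is given per length of transcript, levels can be compared between the genes. Lamp1, which encodes an abundant glycoprotein of the lysosomal membrane, had the highest mean level and was at 469 and 500 FPKM under CD without and with 7KC, and 577 and 563 under WD. Psap, the precursor of the saposins that present sphingolipids to their enzymes, was next with 331, 346, 413 and 524 FPKM in the same order. The proteases Ctsl and Ctsd followed. At the other end, the sulfatase gene Sgsh had 1.1 to 2.2 FPKM, Gla 1.41 to 3.57 FPKM and Idua 2.39 to 3.29 FPKM. All 42 genes together made up 0.456% and 0.473% of the summed FPKM under CD without and with 7KC, and 0.575% and 0.735% under WD.

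**Figure D1:**
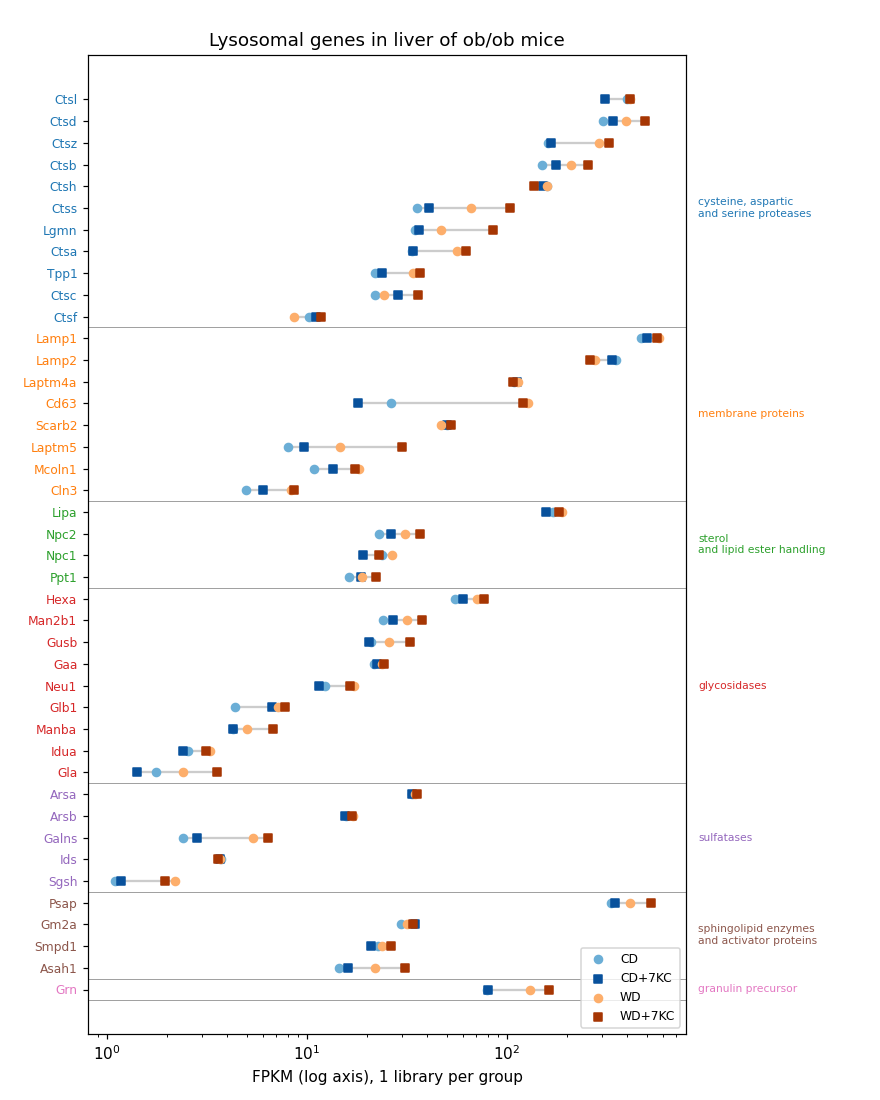
FPKM of each of the 42 lysosomal genes (x axis, log scale) in the 4 libraries, with genes in rows grouped by role and 1 point per library. Cd63 has the widest spread, from 17.9 FPKM in CD+7KC to 127 FPKM in WD, while Ids lies between 3.59 and 3.73 FPKM.

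WD was compared with CD to describe how the lysosomal genes differed with the diet in the absence of 7KC. Of the 42 genes, 38 were higher in WD and 4 were lower, whereas 49.1% of all genes were higher. The median log2 fold change (of FPKM + 0.1) of the members was 0.36, and that of all genes was -0.01. More than 1.5-fold higher (a log2 of 0.58) were 13 members, compared with 8.57% of all genes, and no member was more than 1.5-fold lower (6.92% of all genes). Past 2-fold were Cd63 and Galns, compared with 2.61% of all genes. Of the 26 members with an interval, 16 lay above 0, 1 lay below 0 and 9 included 0. Of the 5024 of all genes for which it could be computed, 22.4% lay above 0 and 24.9% below 0. With 7KC present 19 of the 26 lay above 0 (25.5% of these genes).

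The same comparison was available in the libraries with 7KC, WD+7KC and CD+7KC, which share no library with WD and CD. Here 37 genes were higher and 5 lower, compared with 47.2% higher among all genes. The median log2 fold change was 0.44 against -0.02 for all genes. More than 1.5-fold higher were 15 members (11.8% of all genes), none was more than 1.5-fold lower (8.32% of all genes), and 7 members were past 2-fold (5.10% of all genes). These 7 were Cd63, Laptm5, Ctss, Gla, Lgmn, Galns and Grn. Across the 2 pairs of libraries, 35 of 42 members were higher under WD both without and with 7KC, compared with 32.4% of all genes. In 33 members both WD libraries lay above both CD libraries (25.8% of all genes). More than 1.5-fold higher in both pairs were 10 members (4.89% of all genes), namely Cd63, Galns, Laptm5, Ctss, Ctsz, Ctsa, Tpp1, Sgsh, Asah1 and Grn. Only Lamp2 and Ids were lower in both pairs, and for Ids the folds were 0.991 and 0.982.

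**Figure D2:**
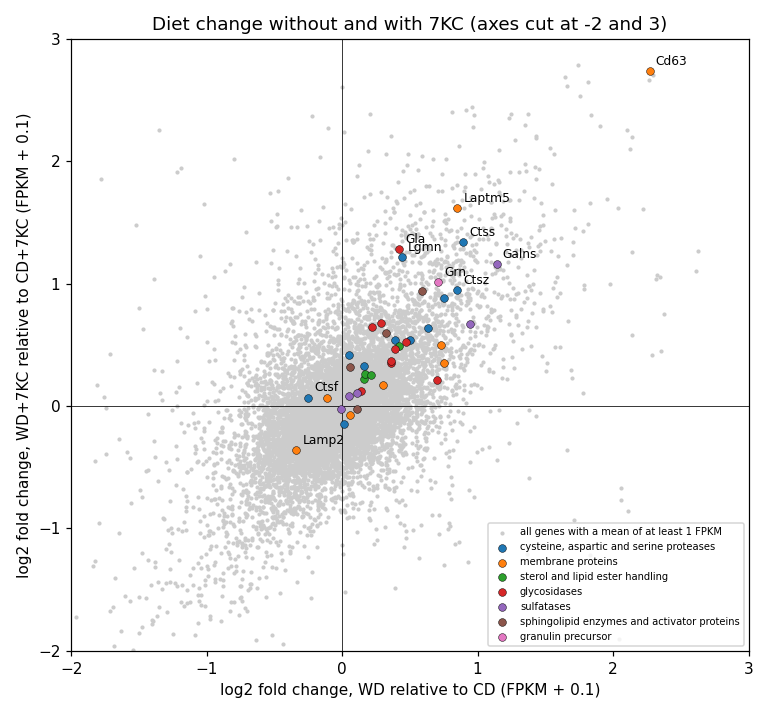
Log2 fold change of WD relative to CD (x axis) against WD+7KC relative to CD+7KC (y axis), with 1 point per gene, the 42 members coloured by role and all genes in grey. Of the members, 35 lie above 0 on both axes, with Cd63 far from the others at 2.27 and 2.74.

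Among the membrane proteins, Cd63 (chromosome 10, 128900989 to 128912822, GRCm38), a tetraspanin of late endosomes, lysosomes and exosomes, had the greatest difference. It was at 26.2 and 17.9 FPKM under CD without and with 7KC, and 127 and 120 under WD. Both WD libraries were well above both CD libraries, by 4.84-fold without and 6.72-fold with 7KC. Cd63 has several mRNAs and an annotated pseudogene copy, Cd63-ps, and how reads were assigned between them was not given in the sources used here. Laptm5 (chromosome 4, 130913125 to 130936141), a membrane protein of lysosomes in leukocytes, was at 8.07 and 9.65 FPKM under CD without and with 7KC, and 14.6 and 29.8 under WD. Its log2 fold change was 0.85 in WD relative to CD (0.60 to 1.11) and 1.62 in WD+7KC relative to CD+7KC (1.42 to 1.84). Mcoln1, the calcium channel of the lysosome, was at 10.8, 13.5, 18.2 and 17.3 FPKM in CD, CD+7KC, WD and WD+7KC. Cln3, whose loss causes a neuronal ceroid lipofuscinosis, was at 4.97, 6.04, 8.29 and 8.58 FPKM. In both genes the WD libraries were above the CD libraries. As deposited, the step between CD and WD was larger without 7KC (0.75 and 0.73) than with it (0.35 and 0.50). With sums made equal the steps were 0.79 without and 0.56 with 7KC for Mcoln1, and 0.76 and 0.71 for Cln3. The counting intervals of the 2 steps of Mcoln1 overlapped (0.51 to 1.02 and 0.13 to 0.58), and Cln3 had no interval. Not all membrane proteins were higher under WD. Lamp2, needed for the fusion of autophagosomes with lysosomes, was at 349 and 336 FPKM in the CD libraries and at 276 and 261 in the WD libraries, a log2 fold change of -0.34 without and -0.36 with 7KC, or -0.15 with 7KC after rescaling to equal sums. Scarb2, which carries glucocerebrosidase to the lysosome, lay between 46.8 and 52.6 FPKM and Laptm4a between 107 and 113 FPKM.

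Of the 11 proteases, 10 were higher in WD than in CD and 10 were higher in WD+7KC than in CD+7KC, with medians of 0.44 and 0.54. Ctss (chromosome 3, 95526786 to 95556403), the cysteine protease that cuts the invariant chain in antigen-presenting cells, was at 35.5 and 40.8 FPKM under CD without and with 7KC, and 66.1 and 103 under WD. Ctsz (chromosome 2, 174427493 to 174439039), a carboxypeptidase, was at 161, 167, 289 and 323 FPKM. The levels of Ctsz thus fell into a CD pair and a WD pair, with log2 fold changes of 0.85 (0.77 to 0.92) and 0.95 (0.88 to 1.02). Ctsa, which protects β-galactosidase and neuraminidase in a complex, was at 33.5, 34.0, 56.2 and 62.7 FPKM. Its exons share 495 bases with Pltp on the opposite strand, which was at 46.0, 39.3, 61.6 and 63.3 FPKM, and whether strand was used in counting was not given. Tpp1, a tripeptidyl peptidase, was at 21.8, 23.7, 33.8 and 36.8 FPKM. The aspartic protease Ctsd (chromosome 7, 142375911 to 142388038) was at 302, 338, 395 and 490 FPKM, and the cysteine protease Ctsb at 149, 175, 210 and 254 FPKM. These were abundant genes with smaller differences of 0.39 (0.34 to 0.44) and 0.50 (0.45 to 0.54) between WD and CD, and both stood in the order CD, CD+7KC, WD, WD+7KC, an order shared by 19 of the 42 members and by 7.82% of all genes. Lgmn (chromosome 12, 102394084 to 102439813), the asparaginyl endopeptidase legumain, was at 34.5, 36.5 and 46.8 FPKM in CD, CD+7KC and WD and at 85.3 FPKM in WD+7KC, so that 1 library stood apart. Ctsl was at 399, 308, 413 and 412 FPKM, with only CD+7KC below the others. Ctsh, an aminopeptidase, lay between 137 and 159 FPKM, Ctsf between 8.59 and 11.7 FPKM, and Ctsc, which activates the serine proteases of granulocytes, between 21.8 and 35.8 FPKM.

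The glycosidases, which remove sugars from glycoproteins, glycolipids and glycosaminoglycans, were higher in WD than in CD in 9 of 9 genes (median 0.36) and also in 9 of 9 with 7KC (median 0.47). Gla, the α-galactosidase that is lost in Fabry disease, was at 1.76 and 1.41 FPKM under CD without and with 7KC, and 2.39 and 3.57 under WD, and rested on an estimated 46 to 128 reads. The interval of its change included 0 between WD and CD (-0.08 to 0.99) and lay above 0 with 7KC (0.84 to 1.86). Glb1, the β-galactosidase, was at 4.36, 6.70, 7.15 and 7.75 FPKM, with only CD low. Gusb, the β-glucuronidase, was at 21.0, 20.5, 25.8 and 32.8 FPKM. Hexa, the α subunit of hexosaminidase, was at 55.2, 60.3, 70.9 and 77.0 FPKM, and Man2b1, an α-mannosidase, at 24.0, 26.9, 31.6 and 37.4 FPKM. The β-mannosidase Manba was at 4.29, 4.25, 5.01 and 6.74 FPKM. Neu1, the sialidase, was at 12.3, 11.5, 17.1 and 16.5 FPKM, and Idua at 2.55, 2.39, 3.29 and 3.12 FPKM. In these last 2 genes the levels split by diet and not by 7KC. Gaa, the acid α-glucosidase that degrades glycogen, was nearly level at 21.6 to 24.2 FPKM.

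As deposited, the sulfatases divided into those that differed with diet and those that differed little. Galns (chromosome 8, 122578242 to 122611463), which removes sulfate from keratan and chondroitin sulfate, was at 2.40 and 2.81 FPKM under CD without and with 7KC, and 5.40 and 6.41 under WD, 2.25-fold higher in WD without and 2.28-fold higher with 7KC. Sgsh (chromosome 11, 119343425 to 119355536), the sulfamidase of heparan sulfate, was at 1.1, 1.18, 2.2 and 1.95 FPKM, with log2 fold changes of 0.94 (0.48 to 1.53) and 0.67 (0.23 to 1.23). Both WD libraries lay above both CD libraries in these 2 genes. In contrast, Arsa ranged from 33.5 to 35.4 FPKM, Arsb from 15.5 to 17 FPKM and Ids from 3.59 to 3.73 FPKM. As deposited, every counting interval of these 3 genes, in all 4 comparisons, included 0. The most that those intervals allowed in WD relative to CD was 0.17 for Arsa, 0.27 for Arsb and 0.29 for Ids. With sums made equal, they were at 0.29, 0.32 and 0.18 in WD+7KC relative to CD+7KC, against a median of 0.18 for all genes. On that scale 25 of the 26 members with an interval lay above 0 there, compared with 43.5% of the genes with an interval.

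Of the genes for sphingolipids, Asah1 (chromosome 8, 41340197 to 41374773), the acid ceramidase, was at 14.5 and 16.0 FPKM under CD without and with 7KC, and 21.9 and 30.9 under WD. Its log2 fold change with diet was 0.59 (0.40 to 0.78) without and 0.94 (0.78 to 1.11) with 7KC. Psap had 0.32 and 0.60. Smpd1, the acid sphingomyelinase, was at 22.7, 20.9, 23.7 and 26.2 FPKM, and Gm2a, the activator of GM2 ganglioside breakdown, was at 29.4, 34.5, 31.7 and 34.0 FPKM, so that Smpd1 was slightly higher in both WD libraries, with an interval that included 0 between WD and CD (-0.11 to 0.24), and Gm2a did not split by diet. Grn (chromosome 11, 102430315 to 102437048), the precursor of the granulins, was at 79.8, 80.6, 131 and 162 FPKM, a log2 fold change of 0.71 (0.62 to 0.80) without and 1.01 (0.93 to 1.09) with 7KC.

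The 4 genes that handle sterols and lipid esters had medians of 0.19 in WD relative to CD and 0.26 with 7KC. These were below the 0.36 and 0.44 of all members but above the sulfatases, at 0.11 in both. Lipa (chromosome 19, 34492318 to 34527474), the acid lipase that splits cholesteryl esters and triglycerides, was at 169 and 157 FPKM under CD without and with 7KC, and 189 and 182 under WD. Npc1 and Npc2, the membrane and the soluble protein that together move free cholesterol out of the lysosome, did not go together. Npc2 (chromosome 12, 84754562 to 84773152) was at 23.0, 26.3, 30.8 and 36.9 FPKM, and Npc1 was at 23.6, 19, 26.6 and 22.8 FPKM. With 7KC, Npc2 was higher under CD (0.19, interval 0.05 to 0.34) and under WD (0.26, 0.14 to 0.38), while Npc1 was lower under CD (-0.31, -0.43 to -0.19) and under WD (-0.22, -0.34 to -0.11). After rescaling to equal sums the Npc1 difference was -0.27 under CD and -0.01 under WD. Ppt1, the palmitoyl protein thioesterase, was at 16.3, 18.6, 18.9 and 22.2 FPKM. All 4 genes of this group were higher in WD than in CD, by 0.16 to 0.42, and in WD+7KC than in CD+7KC, by 0.22 to 0.49. None of them was past 1.5-fold as deposited, and with sums made equal Npc2 was, at 0.70 in WD+7KC relative to CD+7KC.

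The libraries with and without 7KC were compared under each diet to describe how the lysosomal genes differed. Under WD, 28 of the 42 genes were higher in WD+7KC and 14 were lower, compared with 45.3% of all genes higher, and the median was 0.13 against -0.03 for all genes. With sums made equal, 41 were higher and Npc1 alone was lower, with a median of 0.35 against 0.18. On that scale 8132 of the 10686 genes were higher too. As deposited, 30 of the 42 were above the median of all genes. The count was the same with equal sums, upper quartile and median ratio. Rescaling a library shifts the members and this median alike, so that sameness is built in and is not a separate result. More than 1.5-fold higher were Laptm5, Lgmn and Ctss (7.49% of all genes), none was more than 1.5-fold lower (3.03% of all genes), and Laptm5 alone was past 2-fold (2.71% of all genes). With sums made equal 8 members were past 1.5-fold (13% of all genes). Laptm5 had a log2 fold change of 1.02 (0.84 to 1.21), Lgmn 0.86 and Ctss 0.64. They were followed by Gla (0.56, interval 0.13 to 1.02), Ctsc (0.55), Asah1 (0.49, 0.34 to 0.65), Ctsf (0.44, 0.14 to 0.75) and Manba (0.42, 0.14 to 0.71). Among the abundant genes, Psap was higher by 0.34, Ctsd by 0.31 (0.27 to 0.36), Grn by 0.31 (0.24 to 0.38) and Ctsb by 0.27 (0.24 to 0.31). By role, the proteases had a median of 0.27 with 9 of 11 higher, the sphingolipid genes 0.24 with 4 of 4 higher and the glycosidases 0.12 with 7 of 9 higher. The membrane proteins had -0.06 with 3 of 8 higher and the sulfatases -0.02 with 2 of 5 higher, both of which turned positive after rescaling (0.16 and 0.20).

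Under CD, 26 genes were higher in CD+7KC and 16 lower (48.1% of all genes higher), with a median of 0.06 against -0.00 for all genes. Glb1, with a log2 fold change of 0.61, was the only member more than 1.5-fold higher (4.39% of all genes). None was past 2-fold (1.18% of all genes), and none was more than 1.5-fold lower (3.04% of all genes). Cd63, at -0.55, and Ctsl, at -0.37 (-0.42 to -0.32), were lowest. Of the 26 members with an interval, 7 lay above 0 (13.8% of the genes with an interval), 2 lay below 0 (17.9%) and 17 included 0. Under WD 15 lay above 0 (16.4% of the genes with an interval), 1 lay below 0 (23.7%) and 10 included 0. Both counts depend on the scaling, and with sums made equal 11 of 26 under CD (17.9% of these genes) and 21 of 26 under WD (39.1%) lay above 0. Genes higher with 7KC under both diets numbered 22 (23.5% of all genes), 10 were lower under both, and 10 had opposite signs. The shares of all genes lower under both or opposite in sign were not computed. Ctsb, Ctsd, Npc2, Hexa and Man2b1 had intervals above 0 under both diets. As deposited, the change with 7KC was larger under WD than under CD in 29 of 42 members (47.2% of all genes). With sums made equal, the median change of all genes with 7KC was 0.18 under WD and 0.03 under CD. This count and the gaps given next therefore depend on the scaling, and they are given as deposited only. The largest gaps between the diets were those of Gla (0.87 on the log2 scale), Lgmn (0.78) and Laptm5 (0.77), and the largest in the other direction were those of Glb1 (-0.50) and Mcoln1 (-0.40). With 1 library in each group these differences between differences could not be tested.

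**Figure D3:**
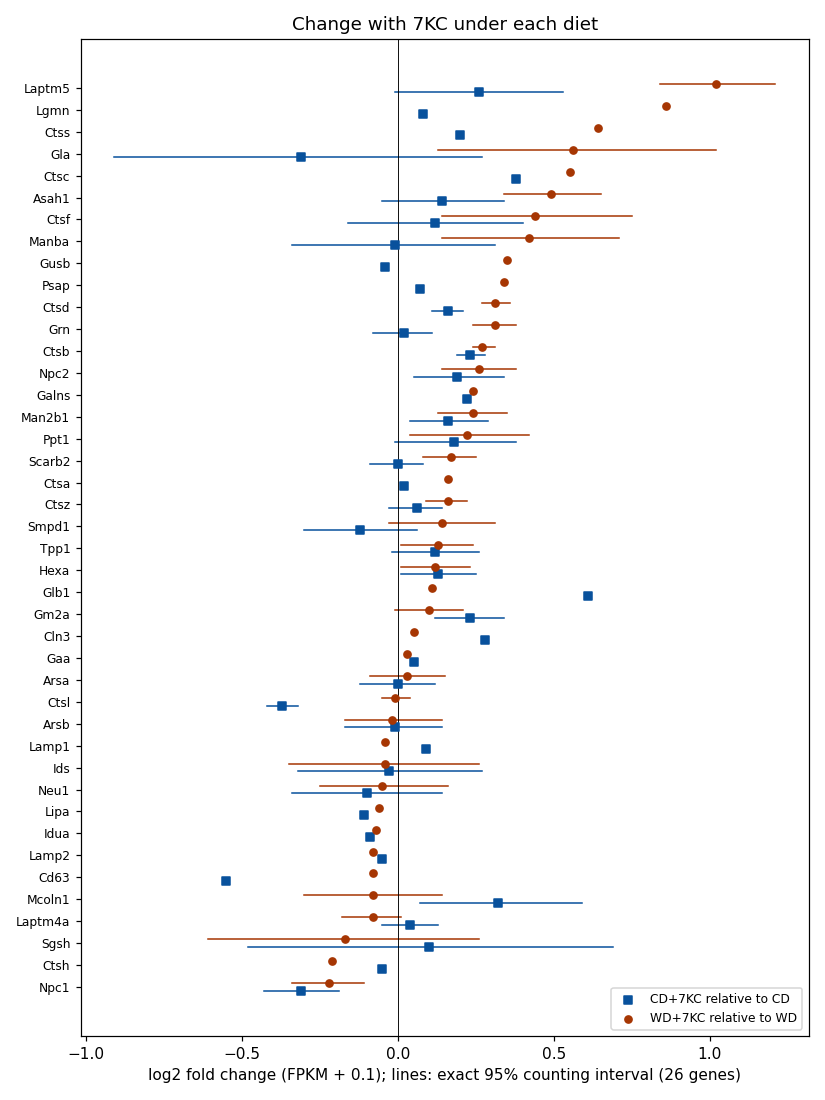
Log2 fold change with 7KC (x axis) for each of the 42 genes under CD (blue squares) and under WD (brown circles), with lines for the exact 95% counting interval of the 26 genes that have one. Laptm5, Lgmn and Ctss lie highest under WD at 1.02, 0.86 and 0.64, and their blue squares lie at 0.26, 0.08 and 0.20.

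The libraries also differed in markers of other liver cells. The medians of the members and of the macrophage markers were above 0 in all 4 comparisons, but not by the same amounts. The members' medians were 0.36 in WD relative to CD and 0.06 in CD+7KC relative to CD. They were 0.13 in WD+7KC relative to WD and 0.44 in WD+7KC relative to CD+7KC. The 20 macrophage and Kupffer cell markers summed to 353 and 500 FPKM under CD without and with 7KC, and 579 and 1073 under WD, and none of them was at 0 in any library. Of the 18 that averaged 1 FPKM or more, 17 were higher in WD than in CD (median 0.71), 16 in CD+7KC than in CD (median 0.40), and 18 in WD+7KC both relative to WD (median 0.94) and relative to CD+7KC (median 1.17). In bulk RNA, more cells of a type and more RNA per cell cannot be told apart. The 8 endothelial markers summed to 71.7 and 98.0 FPKM under CD without and with 7KC, and 57.7 and 152 under WD, and 8 of 8 were higher in WD+7KC than in WD (median 1.48), while 6 of 8 were lower in WD than in CD (median -0.24). The 7 stellate cell markers summed to 134 to 171 FPKM and had medians of 0.71 in WD+7KC relative to CD+7KC (7 of 7 higher), -0.49 in CD+7KC relative to CD (6 of 7 lower), -0.08 in WD+7KC relative to WD and 0.06 in WD relative to CD. The 9 hepatocyte markers had medians of -0.26 in WD+7KC relative to WD and -0.20 in WD relative to CD. With sums made equal these were -0.05, with 4 of 9 higher, and -0.16. The 4 neutrophil markers summed to 15.1 to 21.6 FPKM and the 9 markers of T, B and NK cells to 1.59 to 7.42 FPKM. Without Laptm5 and Ctss, the members' medians were 0.34 in WD relative to CD and 0.12 in WD+7KC relative to WD. A median moves little when so few genes are left out, so these values do not measure the part of leukocytes. The part of macrophages or endothelial cells in the levels of the other members was not tested.

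**Figure D4:**
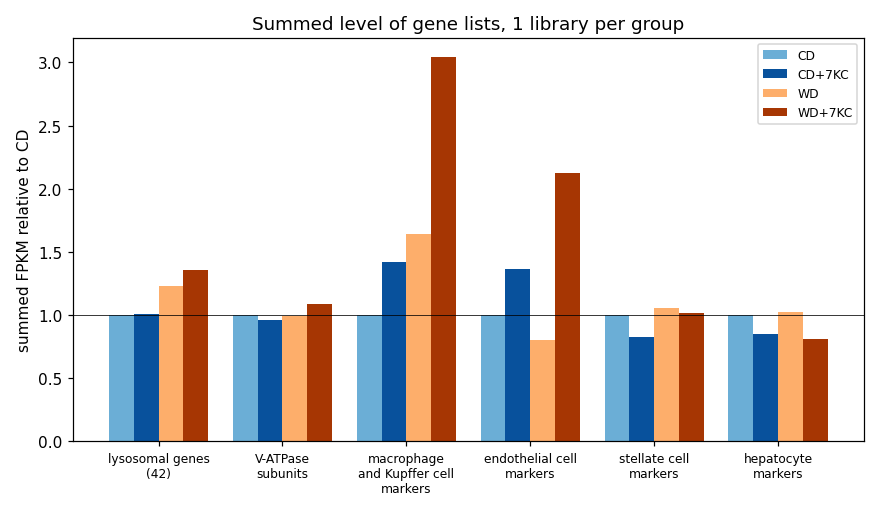
Summed FPKM of gene lists in each library divided by the sum in CD (y axis, bars from 0), with 1 bar per library. The 42 lysosomal genes reach 1.35 in WD+7KC, the macrophage and Kupffer cell markers 3.04 and the endothelial markers 2.13, while the hepatocyte markers are at 0.808. The values are as deposited, and the sum over all symbols was also lowest in WD+7KC.

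The lists of other lysosomal genes had smaller medians between WD and CD than the 42, and the difference between lists was not tested. Of 28 other hydrolases and membrane proteins that averaged 1 FPKM or more, 22 were higher in WD than in CD, with a median of 0.11, and 3 were past 2-fold. These 3 were Gpnmb, a glycoprotein of lipid-laden macrophages, Cd68, a macrophage lysosomal glycoprotein, and Dnase2a, the acid nuclease. Gpnmb was at 2.25 and 3.77 FPKM under CD without and with 7KC, and 11.2 and 24.4 under WD. Cd68 was at 8.11, 11.2, 20.7 and 38.1 FPKM and Dnase2a at 6, 5.1, 12.6 and 11.7 FPKM, so that Gpnmb and Cd68 were highest in WD+7KC and Dnase2a split by diet. With 7KC under WD this list had a median of 0.05 with 18 of 28 higher, and under CD 0.05 with 16 of 28 higher. The 17 genes of the proton pump that acidifies the lysosome (V-ATPase subunits and accessory proteins) had a median of 0.22 in WD relative to CD with 14 higher, 0.29 with 7KC, 0.06 in WD+7KC relative to WD, and -0.01 with 7KC under CD. The 6 genes for sorting enzymes to the lysosome had medians of 0.29 in WD relative to CD and -0.15 in WD+7KC relative to WD, the latter 0.07 after rescaling. Highest in WD+7KC relative to WD were Gpnmb (1.12), Atp6v0c of the pump (1.17) and Igf2r, a mannose 6-phosphate receptor (0.33), and highest in WD relative to CD were Gpnmb (2.26), Atp6v0d2 of the pump (0.63) and Nagpa (0.80), which uncovers the mannose 6-phosphate tag. Lowest in WD+7KC relative to WD were Mfsd8, a lysosomal membrane transporter (-0.34), Atp6ap2 of the pump (-0.08) and the sorting receptor Sort1 (-0.24), and lowest in WD relative to CD were Cd164 (-0.13), Atp6v0c (-1.65) and Sort1 (-0.08). With 7KC under CD the lowest were Ctsk (-0.54), Atp6v1b2 (-0.21) and Sort1 (-0.61), and the highest Gpnmb (0.72), Atp6v0d2 (0.47) and Nagpa (0.35). In WD+7KC relative to CD+7KC the highest were Gpnmb (2.66), Atp6v0d2 (1.30) and Igf2r (0.62), and the lowest Hyal1, a hyaluronidase (-0.48), Atp6v0c (-0.27) and Gnptab (-0.16).

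The factors of the CLEAR element differed little between WD and CD. Tfeb was at 3.31 and 3.72 FPKM under CD without and with 7KC, and 3.57 and 4.28 under WD, and Tfe3 at 8.52, 7.07, 8.78 and 9 FPKM. Mitf lay between 0.805 and 1.04 FPKM, and Tfec, a related factor of macrophages, was at 0.923, 1.26, 0.805 and 2.87 FPKM, with WD+7KC above the others. The 10 members with GTCACGTG had a median of 0.57 in WD relative to CD, with 10 of 10 higher, and the 27 members without it 0.22, with 23 of 27 higher. With 7KC present the medians were 0.52 and 0.37. They were 0.08 and 0.14 in WD+7KC relative to WD, and 0.10 and 0.04 in CD+7KC relative to CD. For the shorter core CACGTG the 13 members with it and the 24 without it had medians of 0.42 and 0.31 in WD relative to CD and 0.42 and 0.42 with 7KC, so that the gap depended on the letters searched. The 415 described genes with GTCACGTG had a median of -0.04 in WD relative to CD, and the 7788 genes without it -0.01.

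Across the 4 libraries, 27 of the 42 genes were highest in WD+7KC (25.8% of all genes), 12 in WD, 2 in CD and 1 in CD+7KC. The shares of all genes highest in WD, CD or CD+7KC were not computed. After rescaling to equal sums 40 were highest in WD+7KC, but so were 53.8% of all genes.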

How the data were processed

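RNA was extracted from liver, and stranded mRNA libraries were sequenced in 75-base single-end mode, 1 library for each of the 4 groups. The authors mapped the reads to mm10 (GRCm38) with TopHat2 2.0.13, Bowtie2 2.2.3 and SAMtools 0.1.19, per the labels and methods, computed FPKM values with Cufflinks 2.2.1 and deposited 1 FPKM value per gene symbol. The gene annotation and the strand setting were not given in the sources used here. Counts of reads were not used, because the tables hold FPKM.

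Log2 fold changes were computed from FPKM + 0.1 for the 10686 genes whose 4 libraries averaged 1 FPKM or more, and thresholds of 2-fold and 1.5-fold were applied. With 1 library per group there was no test, and a fold change on this scale understates the change of low genes. The members and the gene lists were chosen with earlier results of these data known. Every member was named. Of the other lysosomal lists, the genes of largest and smallest change were named by rule. For the cell marker lists counts, medians and sums are given in place of these genes. Cd68, Dnase2a, Alb, Ttr and the CLEAR factors were named after their values had been seen. To estimate depth, 12927 genes that have only 1 RefSeq mRNA were used, with their GENCODE vM21 transcript lengths less 200 bases. Intervals were also computed for all 5024 genes with a single mRNA and a mean of 1 FPKM or more. Alternatives were pseudocounts of 1 and 0.01, no filter, 3 rescalings, leaving out Laptm5 and Ctss and, chosen after seeing the data, equal sums for the intervals and leaving out the 12 members whose exons overlap another gene. The code was tested on simulated data. Python 3.11.15, numpy 2.4.6, pandas 2.3.3, scipy 1.17.1 and matplotlib 3.10.9 were used.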

Additional observations from a re-analysis of the deposited data

How the results depend on the processing

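The members' median log2 fold changes kept their direction in all 4 comparisons under every alternative run. They moved by more than the median half-width of the members' counting intervals only on rescaling to equal sums. The members' median then went to 0.35 from 0.13 in WD+7KC relative to WD. In WD+7KC relative to CD+7KC it went to 0.65 from 0.44. The median of all genes moved as well in both. With a pseudocount of 1, the number of members past 2-fold became 1 instead of 2 in WD relative to CD, 4 instead of 7 in WD+7KC relative to CD+7KC, and 0 instead of 1 in WD+7KC relative to WD. Rescaling to equal sums gave 2 in WD+7KC relative to WD and 10 instead of 7 in WD+7KC relative to CD+7KC, where 22 instead of 15 were past 1.5-fold. Among all 10686 genes, the number more than 2-fold higher rose from 290 to 503 and from 545 to 815 in these comparisons. The number more than 1.5-fold higher in WD+7KC relative to CD+7KC rose from 1261 to 1984. Rescaling also raised the number of members' intervals above 0 in CD+7KC relative to CD from 7 to 11, an alternative chosen after seeing the data. Leaving out Laptm5 and Ctss gave 0 past 2-fold in WD+7KC relative to WD, because Laptm5 had been the only member past it. The threshold of 1.5-fold gave 13 in WD relative to CD, 15 in WD+7KC relative to CD+7KC, 3 in WD+7KC relative to WD and 1 in CD+7KC relative to CD. Leaving out members whose exons overlap another gene lowered the median in WD relative to CD to 0.26. Of the members left out, Ctsa, Ctsz, Cln3, Glb1, Sgsh and Grn were more than 1.5-fold higher in WD than in CD. Single overlaps covered from 0.694% (Ctsz) to 21.6% (Sgsh) of a member's exonic bases. The gene that overlaps Sgsh was at 0 to 0.0562 FPKM. Whether shared reads changed the level of any member was not tested. No paired analysis was possible because each group had 1 library, and no library could be left out for the same reason. Counting error limits the low members most, and the half-width of the 95% interval had a median of 0.12 to 0.14 over 26 members in the 4 comparisons. Variation between mice is not covered by any value given here.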

Other observations

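Atp6v0c, the proteolipid subunit that forms the ring of the proton pump, was at 172 and 149 FPKM under CD without and with 7KC, and 54.9 and 124 under WD. The WD library alone was low, by a log2 of -1.65 relative to CD, while 14 of the 17 pump genes were higher in WD. Atp6v0d2, a subunit found in macrophages and osteoclasts, was at 1.30, 1.85, 2.07 and 4.71 FPKM (CD, CD+7KC, WD, WD+7KC), with the highest value in WD+7KC. Ctsk, a cysteine protease best known from osteoclasts, was at 1.38, 0.919, 1.38 and 2.26 FPKM, and Galc, which removes galactose from galactosylceramide, was at 2.10, 1.42, 2.04 and 2.90 FPKM. Ctsk and Galc, the latter named after its values had been seen, were lowest in CD+7KC and highest in WD+7KC. So were the members Gla, Gusb, Manba, Smpd1 and Arsa. The share of all genes with this pattern was not computed.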
